A study of Mus musculus with 2 samples.

Results

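The Mir200 family in the mouse is made of 5 miRNA hairpins in 2 genomic clusters: Mir200b, Mir200a and Mir429 on chromosome 4, and Mir200c and Mir141 on chromosome 6. Its reads were all reads of 19 to 25 nt that matched one of these hairpins of GENCODE M21 exactly and in the sense direction. The 5 hairpins are among 1174 annotated hairpins with a Mir name, of which 740 had such reads, and all 5 had reads in both tables. The series studied small RNA of testes taken at 23 dpp from C57BL/6 mice, and its labels describe 1 Stambp-ps1-/- and 1 Stambp-ps1+/- sample, with no wild type. Stambp-ps1 is a pseudogene, and the labels do not say how its mutation was made. The 2 deposited tables of read sequences and counts are both filed under the Stambp-ps1-/- sample. Going by a word in its deposited name, one is called the KO-named table here and the other the het-named table, and no genotype was assigned to either. With 1 library per table there was no replicate check and no test between groups, and all intervals below are exact 95% binomial intervals of the counts. Without molecular identifiers, PCR copies cannot be told from separate molecules, so these intervals and the floors set by 3 reads cover counting error only.

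miRNAs are cut from hairpin transcripts as a duplex of a 5p and a 3p strand, one of which is usually kept by an Argonaute protein. The kept strand finds mRNAs mainly through its seed, bases 2 to 8, so miRNAs with the same seed share most predicted targets. The Mir200 family is known from epithelial cells, where its 3p strands repress Zeb1 and Zeb2, transcription factors that switch off E-cadherin. Epithelial cells of the testis include the Sertoli cells, which nurse the germ cells, and the lining of the rete testis. In bulk RNA of a whole testis, fewer cells of a type and less RNA per cell cannot be told apart.

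The 3p strands fall into 2 seed groups that differ by U4C, counted from base 1 at the 5′ end, and the clusters each hold members of both. The mature strands are shown because they are the molecules counted. They are from RefSeq (GRCm38.p6), and the capitals mark the seed. The first 3 share the seed AAUACUG and the last 2 the seed AACACUG. No other mature mouse miRNA in the RefSeq table used had either seed.
mmu-miR-200b-3p: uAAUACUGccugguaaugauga
mmu-miR-429-3p: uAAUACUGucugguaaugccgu
mmu-miR-200c-3p: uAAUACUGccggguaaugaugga
mmu-miR-200a-3p: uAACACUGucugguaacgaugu
mmu-miR-141-3p: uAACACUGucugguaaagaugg

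Outside the seed the strands remain close to each other. Over 22 compared bases, miR-429-3p differs from miR-200b-3p at 4 (C9U, A19C, U20C and A22U), and miR-200c-3p differs from miR-200b-3p at 2 (U11G and A22G). Within the other seed group miR-141-3p differs from miR-200a-3p at 2 bases (C17A and U22G). An exact match of at least 19 nt that starts at base 1 crosses at least 1 of these differences between strands of 1 seed group. Of the reads of the 5 hairpins, 0 also matched another member or an annotated transcript at another place in the genome; transcripts that overlap a hairpin at the same place are given next.

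All 5 hairpins lie on the minus strand of GRCm38. The chromosome 4 cluster spans 1846 bp, with Mir200b at chr4:156055681-156055750, Mir200a at chr4:156054896-156054985 and Mir429 at chr4:156053905-156053987. All 3 lie in an intron of the protein-coding gene Ttll10, on its strand. Mir200b and Mir200a also lie in an intron of the processed transcript Gm13648, whereas the 83 bases of Mir429 lie wholly in an exon of it. The chromosome 6 cluster spans 477 bp, with Mir200c at chr6:124718322-124718390 and Mir141 at chr6:124717914-124717985. Both are in an intron of Gm15884, and 31 bases of Mir141 overlap an exon of Gm29008. The exons of these host transcripts gave almost no small RNA outside the hairpins. Sense reads of any deposited length matching Gm13648 alone numbered 1 in the KO-named table, against 0 in the het-named one, and those of Ttll10 numbered 0 in the KO-named table, against 1 in the het-named one.

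A pair of hairpins, 1 with and 1 without detected 5p reads, show where the strands lie. The capitals mark the 5p and then the 3p mature strand of RefSeq in the GENCODE hairpin.
Mir200b: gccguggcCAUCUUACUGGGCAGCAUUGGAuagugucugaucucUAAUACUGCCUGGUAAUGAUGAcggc
Mir429: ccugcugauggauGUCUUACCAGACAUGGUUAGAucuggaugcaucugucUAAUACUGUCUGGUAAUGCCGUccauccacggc

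The question put to the 2 tables was how much of each hairpin they held. The family was carried by the chromosome 4 cluster. Every hairpin had a higher level in the KO-named table, though for Mir200c the counts were too few to set the tables apart. For Mir429 and Mir141 the log2 ratio was -0.0251 when each distinct sequence was counted once in place of its reads. That value rests, for either hairpin, on 9 distinct sequences in the KO-named table, against 10 in the het-named one. Its total was also changed, to 6895028 distinct sequences in the KO-named table, against 7489485 in the het-named one. The parts of the count and of the total in its sign were not separated. The 5 hairpins together had 9682 reads, or 178.0 reads per 1000000 reads of the table (RPM; 174.5 to 181.6), in the KO-named table and 7473 reads, or 119.0 RPM (116.4 to 121.8), in the het-named table. This was a ratio of 1.5 (1.45 to 1.54). Ratios are of RPM values, KO-named over het-named, while log2 ratios have 0.5 reads added to each count.

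Mir429 had the most reads of the 5; since ligation can differ by end sequence, the order is one of reads, not of molecules. It had 4412 reads in the KO-named table, 81.1 RPM (78.7 to 83.6), and 3004 reads in the het-named table, 47.9 RPM (46.2 to 49.6), a ratio of 1.70 (1.62 to 1.78) and a log2 ratio of 0.76. In both tables Mir200a came next by exact reads, with 2765 reads and 50.8 RPM (49.0 to 52.8) in the KO-named table, against 2231 reads and 35.5 RPM (34.1 to 37.0) in the het-named one, a ratio of 1.43 (1.35 to 1.51). Mir200b had 2239 reads and 41.2 RPM (39.5 to 42.9) in the KO-named table, against 2012 reads and 32.1 RPM (30.7 to 33.5) in the het-named one, a ratio of 1.28 (1.21 to 1.36). Among these exact reads the order of the 3 levels is the same in both tables. It depends on leaving out reads with added 3′ bases, which are counted apart below. With them included, Mir200b-3p had 2980 reads in the KO-named table, against 2675 in the het-named one. Mir200a-3p then had 2800 in the KO-named table, against 2246 in the het-named one, so Mir200b-3p stood higher in both. Of 259 hairpins with at least 200 reads, 209 had a log2 ratio above 0, so a higher level in the KO-named table is not particular to the family.

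The chromosome 6 members were much scarcer. Mir141 had 251 reads, or 4.62 RPM (4.06 to 5.22), in the KO-named table, against 214 reads, or 3.41 RPM (2.97 to 3.90), in the het-named one, a ratio of 1.35 (1.12 to 1.63). Mir200c had 15 reads, or 0.276 RPM (0.154 to 0.455), in the KO-named table, against 12 reads, or 0.191 RPM (0.0988 to 0.334), in the het-named one. Its ratio of 1.44 (0.630 to 3.38) includes 1, so a difference was not detectable at this depth. Both Mir200c counts were above the floors, which are 0.0552 RPM in the KO-named table, against 0.0478 RPM in the het-named one.

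**Figure D1:**
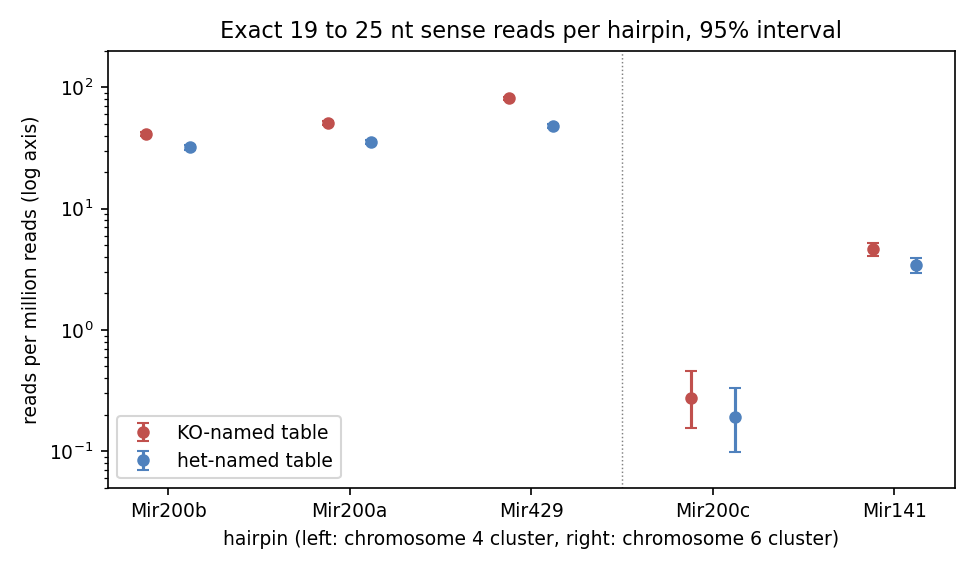
RPM (log axis) of each hairpin in the KO-named (left point) and het-named table (right point), with exact 95% intervals of counting error and 1 library per point. The chromosome 4 hairpins sit between 32.1 and 81.1 RPM, Mir141 near 4 RPM and Mir200c below 0.5 RPM, where the intervals of the tables overlap.

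In the order of summed levels over the 740 hairpins with reads, Mir429 stood at place 107, Mir200a at 122, Mir200b at 126, Mir141 at 215 and Mir200c at 417. The neighbours in that order did not all differ the same way between the tables. Next to Mir429 were Mir181d (log2 ratio 0.37) and Mir19b-2 (0.07). Mir200b stood between Mir7217, at 29.7 RPM in the KO-named table, against 45.8 RPM in the het-named one, and Mir497, at 42.7 RPM in the KO-named table, against 30.0 RPM in the het-named one. Beside Mir200a were Mir15b (log2 ratio -0.17) and Mir1195 (0.16), beside Mir141 were Mir671 (0.47) and Mir7230 (-0.07), and beside Mir200c were Mir1249 (0.01) and Mir370 (0.52).

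Most miRNAs were higher in the KO-named table on this scale. Of 259 hairpins with at least 200 reads in the tables together, 209 had a log2 ratio above 0 and the median was 0.29, with 5% of hairpins below -0.26 and 5% above 0.65. Reads on all Mir hairpins were 12.2% of the KO-named table, against 10.2% of the het-named one. Reads of 18 to 20 nt were 4.08% of the KO-named table, against 7.83% of the het-named one, and their part in the ratios was not tested. With reads on all Mir hairpins as the total, every log2 ratio was lower by 0.26 and the median of the 259 was 0.04. Of the members, 4 of 5 had at least 200 reads, and their median log2 ratio was 0.48. None of these 4 reached a log2 ratio of 1 in size, while 0.386% of the 259 hairpins did so on the KO-named side and 1.16% on the het-named side. All 4 lay above the median of all hairpins, a position that a change of the total cannot alter. Counted from the highest ratio of the 259, Mir429 was at place 6, Mir200a at 28, Mir141 at 55 and Mir200b at 94.

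**Figure D2:**
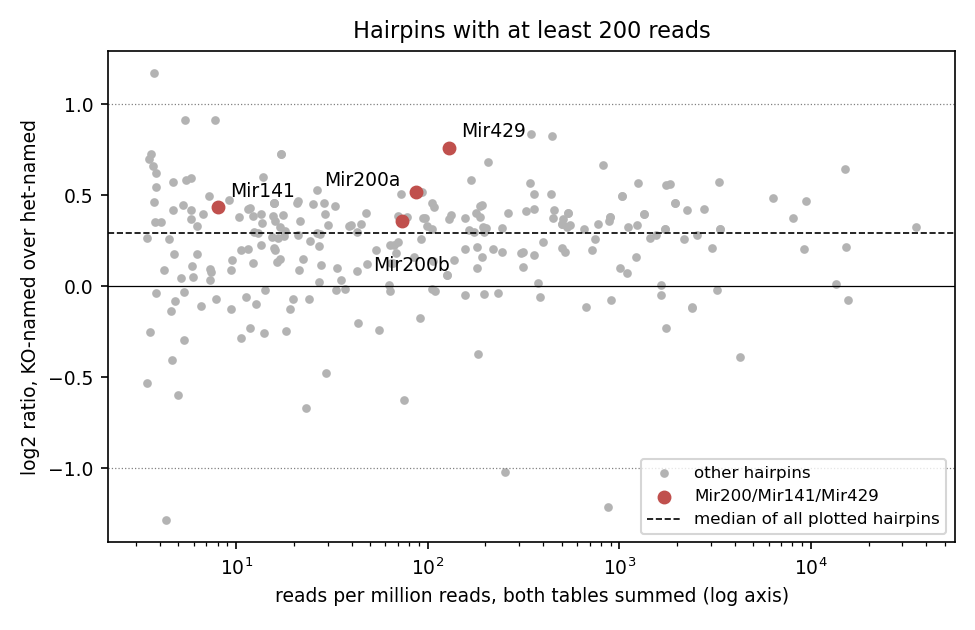
Log2 ratio, KO-named divided by het-named (vertical axis, 0.5 reads added), against the summed level in RPM (log axis) for the 259 hairpins with at least 200 reads; dotted lines mark a log2 ratio of 1 in size and the dashed line the median of 0.29. Mir429 (0.76), Mir200a (0.52), Mir141 (0.44) and Mir200b (0.36) lie above the dashed line and below 1.

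The balance of the chromosome 4 cluster does not depend on the scale, since its 3 hairpins are compared within a table. Mir429 made up 46.9% (45.8 to 47.9) of the cluster's exact reads in the KO-named table, against 41.5% (40.3 to 42.6) in the het-named one. Mir200b made up 23.8% (22.9 to 24.7) in the KO-named table, against 27.8% (26.7 to 28.8) in the het-named one. For Mir200a the shares were 29.4% (28.4 to 30.3) in the KO-named table, against 30.8% (29.7 to 31.9) in the het-named one, with overlapping intervals. There were 1.97 Mir429 reads per Mir200b read in the KO-named table, against 1.49 in the het-named one, and the first ratio was 1.32 times the second (1.22 to 1.43).

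The proportion between the clusters did not differ beyond counting error. The chromosome 4 cluster had 173.1 RPM in the KO-named table, against 115.4 RPM in the het-named one, a log2 ratio of 0.58. The chromosome 6 cluster had 4.89 RPM in the KO-named table, against 3.60 RPM in the het-named one, a log2 ratio of 0.44. There were 35.4 chromosome 4 reads per chromosome 6 read in the KO-named table, against 32.1 in the het-named one, and the interval of the ratio of these (0.918 to 1.33) includes 1. Mir141 made up 94.4% of the chromosome 6 reads in the KO-named table, against 94.7% in the het-named one.

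By seed, the AAUACUG group (Mir200b, Mir429 and Mir200c, 3p reads) had 122.3 RPM in the KO-named table, against 79.5 RPM in the het-named one, a ratio of 1.54 (1.48 to 1.60). The AACACUG group (Mir200a and Mir141) had 54.1 RPM in the KO-named table, against 37.8 RPM in the het-named one, a ratio of 1.43 (1.35 to 1.51). Read by read, bases 2 to 8 were AAUACUG in 69.1% (68.1 to 70.0) of the family's 3p reads in the KO-named table, against 67.4% (66.3 to 68.4) in the het-named one. The seed AACACUG was in 30.6% (29.6 to 31.5) in the KO-named table, against 32% (31 to 33.1) in the het-named one. Among these exact reads each of the other seeds, made by shifted starts, was below 0.3% in both tables. With reads carrying added 3′ bases included, the Mir200b-3p seed shifted by 1 base, AUACUGC, was in 0.777% (0.622 to 0.958) in the KO-named table, against 1.05% (0.845 to 1.29) in the het-named one.

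The family's reads came almost wholly from the 3p arm, an arm being given by the side of the hairpin's midpoint on which the middle of the read lay. Of all family reads, 99.1% (98.8 to 99.2) were 3p in the KO-named table, against 98.6% (98.3 to 98.8) in the het-named one. Mir429 had 0 5p reads among 4412 reads in the KO-named table and again 0 among 3004 in the het-named table. The exact interval allows a share of up to 0.0836% in the KO-named table, against 0.123% in the het-named one. Mir200c also had 0 5p reads, but its few reads allow a share of up to 21.8% in the KO-named table, against 26.5% in the het-named one. The 5p strand of Mir141 had 6 reads in the KO-named table, against 4 in the het-named one.

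Most 5p reads were of Mir200a and Mir200b, whose 5p strands share the seed AUCUUAC. Mir200a-5p had 69 reads in the KO-named table, against 67 in the het-named one, which was 2.5% (1.95 to 3.15) of that hairpin's reads in the KO-named table, against 3% (2.33 to 3.8) in the het-named one. Mir200b-5p had 16 reads in the KO-named table, against 35 in the het-named one, or 0.715% (0.409 to 1.16) in the KO-named table, against 1.74% (1.21 to 2.41) in the het-named one. The Mir200b arms lay on opposite sides of 1, as the 5p ratio was 0.528 (0.273 to 0.979) and the 3p ratio 1.30 (1.22 to 1.38). The 5p interval comes close to 1, and counted as distinct sequences instead of reads the 5p log2 ratio had the other sign, 0.65 in place of -0.90. Over the 259 hairpins the median share of the leading arm was 98.3% in each table.

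Starts were uniform. In every arm with reads the most frequent start was the RefSeq start. At that start were 99.8% of Mir429-3p reads in the KO-named table, against 99.6% in the het-named one, and Mir200a-3p had the same 2 shares. For Mir200b-3p it was 99.2% in the KO-named table, against 99.1% in the het-named one. Mir141-3p had 98.0% in the KO-named table, against 97.6% in the het-named one, and all Mir200c-3p reads began there. Counted over both arms of a hairpin, the main start of the 259 hairpins held a median of 93.4% of reads in the KO-named table, against 92.9% in the het-named one. On that basis Mir429 had 99.8% in the KO-named table, against 99.6% in the het-named one, and Mir200b had 98.5% in the KO-named table, against 97.4% in the het-named one. Mir200a had 97.3% in the KO-named table, against 96.6% in the het-named one, and Mir141 had 95.6% in the KO-named table, against 95.8% in the het-named one. From the highest share of the 259, Mir429 was at place 12 in the KO-named table, against 30 in the het-named one, and Mir141 at place 117 in the KO-named table, against 115 in the het-named one. A start 1 base later, which shifts the seed, was found in 0.720% of exact Mir200b-3p reads in the KO-named table, against 0.910% in the het-named one.

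The 3′ ends were less uniform and departed from RefSeq in 4 of the 5 strands. The most frequent exact read of each 3p arm is shown because its end is the feature that varies between members. These are read sequences from the tables, with T for U.
Mir200b-3p most frequent exact read: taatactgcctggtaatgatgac
Mir429-3p most frequent exact read: taatactgtctggtaatgccg
Mir200c-3p most frequent exact read: taatactgccgggtaatgatgga
Mir200a-3p most frequent exact read: taacactgtctggtaacgatg
Mir141-3p most frequent exact read: taacactgtctggtaaagatg

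Mir200b-3p and Mir200c-3p were mainly 23 nt and the other 3 mainly 21 nt, so that length did not follow the seed or the cluster. RefSeq gives 23 nt for miR-200c-3p and 22 nt for the other 4. Of exact Mir200b-3p reads at the main start, 86.4% (84.9 to 87.8) were 23 nt in the KO-named table, against 85.9% (84.2 to 87.4) in the het-named one. With reads carrying added 3′ bases included, 23 nt held 68.5% in each table. Reads of 24 nt then held 20.6% in the KO-named table, against 20.5% in the het-named one. Mir200c-3p had 10 reads of 23 nt among 15 in the KO-named table, against 10 among 12 in the het-named one. In Mir141-3p, 21 nt reads numbered 207 in the KO-named table, against 185 in the het-named one.

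Mir200a-3p was the most mixed in length. Its 21 nt form made up 53.3% (51.4 to 55.2) of exact reads at the main start in the KO-named table, against 53.0% (50.9 to 55.1) in the het-named one, with 22 nt at 18.5% in the KO-named table, against 20.3% in the het-named one, and 23 nt at 12.4% in the KO-named table, against 12.8% in the het-named one. A 19 nt form held 13.3% (12 to 14.6) in the KO-named table, against 11.8% (10.5 to 13.3) in the het-named one. Reads of 19 to 20 nt were 15.6% of all Mir200a reads in the KO-named table, against 13.8% in the het-named one, while the median over the 259 hairpins was 6.73% in the KO-named table, against 7.80% in the het-named one.

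In Mir429-3p the length forms had unequal ratios between the tables. The 21 nt form was 81.8% (80.6 to 82.9) of exact reads at the main start in the KO-named table, against 76.7% (75.2 to 78.2) in the het-named one. It had 3600 reads in the KO-named table, against 2296 in the het-named one, a ratio of 1.81 (1.72 to 1.91). The 22 nt form had 593 reads in the KO-named table, against 499 in the het-named one, a ratio of 1.37 (1.22 to 1.55), and the 20 nt form 122 reads in the KO-named table, against 125 in the het-named one, a ratio of 1.13 (0.871 to 1.46). The interval of the 21 nt form lay above those of the 22 nt and the 20 nt form, but overlapped that of the 19 nt form, which had 87 reads in the KO-named table, against 70 in the het-named one, a ratio of 1.43 (1.04 to 1.99). For Mir200b-3p the 23 nt form, with a ratio of 1.31 (1.22 to 1.40), and the 22 nt form, with 1.25 (0.980 to 1.60), had overlapping intervals.

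**Figure D3:**
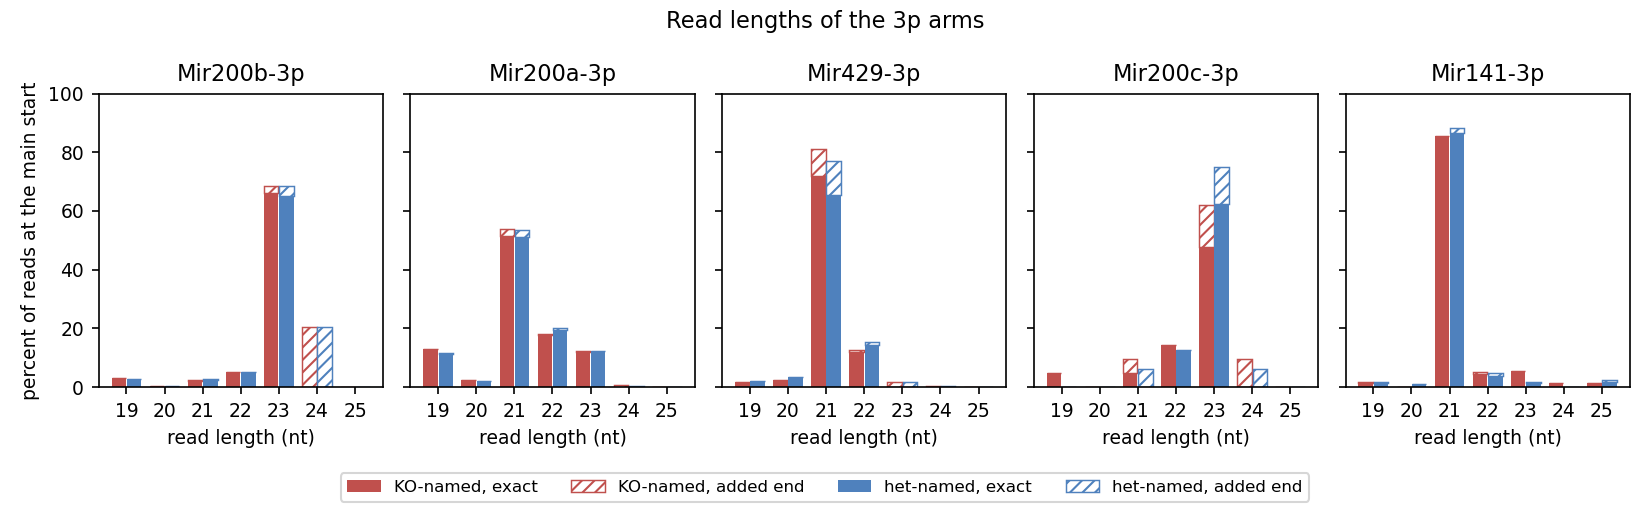
Percent of 3p reads at the main start by read length (19 to 25 nt) for each member, KO-named bars left of het-named bars; filled parts are exact reads and hatched parts reads with 1 to 3 added 3′ bases. Mir200b-3p and Mir200c-3p peak at 23 nt and the others at 21 nt, Mir200b-3p has a hatched bar at 24 nt, and Mir200c-3p rests on few reads.

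Exact matching leaves out reads whose 3′ end carries bases not in the hairpin, a known modification of miRNAs made by terminal nucleotidyltransferases. Such reads were counted apart, as an exact start of at least 18 nt followed by 1 to 3 other bases up to the read's end, at 19 to 25 nt in all. A sequencing error near the end of a read counts as an added base here, and an added base equal to the next base of the hairpin cannot be seen. The examples are shown because each is the most frequent added form of its strand, and the capital marks the added base.
Mir200b-3p read with added end: taatactgcctggtaatgatgacT
Mir429-3p read with added end: taatactgtctggtaatgccT
Mir200a-3p read with added end: taacactgtctggtaacgatA

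Added ends differed between strands more than between tables. Mir200b-3p carried them in 757 of 2980 reads, 25.4% (23.8 to 27.0), in the KO-named table, against 698 of 2675, 26.1% (24.4 to 27.8), in the het-named one. Mir429-3p had them in 615 of 5027 reads, 12.2% (11.3 to 13.2), in the KO-named table, against 515 of 3519, 14.6% (13.5 to 15.8), in the het-named one. Mir200a-3p had only 3.71% (3.04 to 4.48) in the KO-named table, against 3.65% (2.91 to 4.51) in the het-named one. The median over the 259 hairpins was 10.3% in the KO-named table, against 9.53% in the het-named one, so Mir200b lay above it and Mir200a below it in both tables.

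A single uridine was the usual addition in Mir200b-3p, at 18.2% (16.8 to 19.6) of its reads in the KO-named table, against 17.0% (15.6 to 18.5) in the het-named one. A single adenosine was on 4.97% (4.21 to 5.81) in the KO-named table, against 5.72% (4.87 to 6.67) in the het-named one. Mir429-3p also carried mainly uridine, at 9.43% (8.64 to 10.3) in the KO-named table, against 11.5% (10.5 to 12.6) in the het-named one. In Mir200a-3p adenosine led, at 2.43% (1.89 to 3.07) in the KO-named table, against 2.32% (1.73 to 3.03) in the het-named one. The hairpin medians for uridine were 4.29% in the KO-named table, against 4.03% in the het-named one.

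How often a base was added differed with the end of the templated part. In Mir429-3p, of reads whose templated part was 20 nt, 78.5% (74.9 to 81.8) carried an added base in the KO-named table, against 75.7% (71.7 to 79.3) in the het-named one. A single uridine made up 428 of these 445 additions in the KO-named table, against 371 of 389 in the het-named one. At 21 nt it was 1.32% (0.972 to 1.74) in the KO-named table, against 1.5% (1.05 to 2.08) in the het-named one. The next base of the hairpin after 21 nt is U in Mir429 and in Mir200a, so a uridine added there would be counted as a templated 22 nt read, and this bounds what the low values can show. In Mir200b, where the next base is G, an added base was on 23.5% (21.9 to 25.2) of reads with 23 templated nt in the KO-named table, against 23.2% (21.5 to 25.1) in the het-named one.

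Mir141-3p had 2 reads with added ends of 247 in the KO-named table, against 9 of 219 in the het-named one, and Mir200c-3p had 6 of 21 in the KO-named table, against 4 of 16 in the het-named one. Starts 1 base late were commoner among Mir200b-3p reads with added ends than among its exact reads, at 9.25% (7.28 to 11.5) in the KO-named table, against 10.5% (8.29 to 13.0) in the het-named one.

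**Figure D4:**
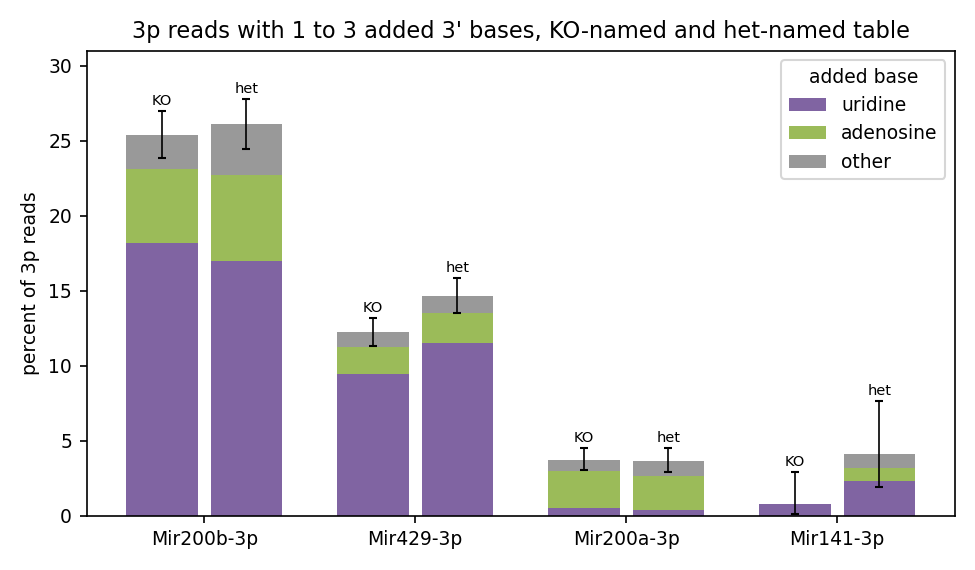
Percent of 3p reads of 4 members that carry 1 to 3 added 3′ bases, KO-named bars left of het-named bars, coloured by a single added uridine, a single added adenosine, or any other addition, with exact 95% intervals of the whole bar. Mir200b-3p is near 25%, Mir429-3p between 12.2% and 14.6% and Mir200a-3p below 4%, and uridine leads in the first 2.

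In the fold predicted by RNAfold, the main 3p end of Mir200b reached 2 bases past the base opposite the RefSeq 5p start. That of Mir429 and of Mir200c reached 1 base past it, and those of Mir200a and Mir141 reached 0. The overhang is a description of the predicted fold and was not measured.

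Other miRNAs known from epithelia were set beside the family, from a list of 13 names. Of these, 9 had at least 200 reads, all 9 with a log2 ratio above 0 and none at 1 or more, and their median was 0.36. Of all 259 hairpins of that depth, 209 were above 0, with a median of 0.29. The 9 include Mir194-1 and Mir194-2, which share reads. Below 200 reads were Mir215 (log2 ratio 1.17), Mir211 (0.75), Mir205 (0.02) and Mir96 (-0.21). The sum over all 13 names was 1341 RPM in the KO-named table, against 1038 RPM in the het-named one. Mir192, known from gut and kidney epithelium, had 497.5 RPM in the KO-named table, against 388.3 RPM in the het-named one, and Mir375, known from pancreatic islets, 222.3 RPM in the KO-named table, against 124.3 RPM in the het-named one. Mir182, known from sensory epithelia, had 216.8 RPM in the KO-named table, against 183.3 RPM in the het-named one, and Mir204, known from the retinal pigment epithelium, had 162.7 RPM in the KO-named table, against 151.3 RPM in the het-named one. Mir205, a marker of stratified epithelium, was scarce, with 44 reads in the KO-named table, against 50 in the het-named one.

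Lists for other cell types had the values that follow, and their part in the family's ratios was not tested. A name counts as measured with at least 200 reads in the tables together. Some names have no hairpin in the annotation used, which holds 8 of 9 germ cell, 4 of 5 blood, 6 of 7 neuron and 1 of 2 liver names. Mir465a of the germ cell list is absent for that reason, not for want of reads. Of all 259 hairpins of that depth, 209 had a log2 ratio above 0, with a median of 0.29. The germ cell list (8 of 9 names measured, Mir871, Mir470, Mir34c and Mir881 highest) had a median log2 ratio of 0.35 and 6 of 8 above 0, with sums of 24334 RPM in the KO-named table, against 22343 RPM in the het-named one. The somatic list (Mir10b, Mir143, Mir202 and Mir145a) had a median of 0.27 and 3 of 4 above 0, with 28071 RPM in the KO-named table, against 22935 RPM in the het-named one. Among blood miRNAs, 3 of 5 names were measured (Mir142, Mir223 and Mir451a), with a median of 0.91. Sums over the list were 64.1 RPM in the KO-named table, against 43.6 RPM in the het-named one. Mir150 went the other way, with 23 reads in the KO-named table, against 32 in the het-named one, a log2 ratio of -0.26. Mir126a of endothelium had a log2 ratio of 0.26, with 408.3 RPM in the KO-named table, against 340.4 RPM in the het-named one. Of 5 muscle names, 2 copies of Mir133a were measured, which share their reads, with a median of 0.73 and sums of 21.7 RPM in the KO-named table, against 13.1 RPM in the het-named one. Of 7 neuron names, 3 copies of Mir9 were measured, also sharing reads, with a median of 0.46. Sums over the list were 27.9 RPM in the KO-named table, against 20.7 RPM in the het-named one. Below 200 reads, Mir124a-1, Mir124a-2 and Mir124a-3 went the other way, with log2 ratios of -0.47, -0.73 and -0.47. The liver marker Mir122 had 0 reads in both tables.

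Reads with a mismatch in the first 18 nt were counted apart. Reads with 1 mismatch there were 2.53% (2 to 3.16) of Mir200b-3p reads in the KO-named table, against 1.83% (1.35 to 2.41) in the het-named one. They were 2.99% (2.40 to 3.68) of Mir200a-3p in the KO-named table, against 2.27% (1.70 to 2.97) in the het-named one, and 2.09% (1.72 to 2.52) of Mir429-3p in the KO-named table, against 1.96% (1.53 to 2.47) in the het-named one. Position 14 held 107 of 275 mismatched family reads in the KO-named table, against 59 of 174 in the het-named one, a site chosen after its values were seen.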

How the data were processed

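Each deposited table lists distinct read sequences of 18 to 32 nt with their raw read count, unscaled, as the values show: 54384974 reads in the KO-named table, against 62773871 in the het-named one. Per the labels' protocols, testis RNA was extracted with Trizol, size-selected on a gel and made into TruSeq Small RNA libraries. How reads were trimmed and filtered is not given in the sources used here.

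Reads were matched with 0 mismatches to GENCODE M21 hairpins; a read on several hairpins was shared equally among them. RPM used all reads of the table. Intervals are Clopper-Pearson, and those of ratios conditional binomial. Hairpins were folded with RNAfold 2.7.2; other steps used Python 3.11.15, matplotlib 3.10.9, scipy 1.17.1, pandas 2.3.3 and numpy 2.4.6. The intervals of ratios were tested on simulated counts, but the matching of reads to hairpins was not tested. The templated length of reads with added ends was checked only on synthetic reads of known start. Their first added base always differed from the hairpin, so the outcome of that check was fixed. RefSeq gave the mature strands of all 5 hairpins. Besides the 5 members, genes were named as neighbours by summed level or as the up to 4 most abundant of each list. Mir205 and Mir122 are exceptions, as defining markers. So are further names of the epithelial and neuron lists, given because they share reads or fall below 200 reads. Members and lists were chosen with earlier results of these data known.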

Additional observations from a re-analysis of the deposited data

Results flagged for a closer look

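Reads of 18 nt lie outside the lengths used above, and some matched the hairpins exactly. Mir200b had 24 in the KO-named table, against 21 in the het-named one, Mir200a had 39 in the KO-named table, against 45 in the het-named one, and Mir429 had 5 in the KO-named table, against 0 in the het-named one. Each count named here other than the 0 was above the floor of 3 reads. These tables have no control library, and 18 nt is the shortest deposited length.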

How the results depend on the processing

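Of 240 values under other settings, 198 stayed within their interval or 1.5-fold limit and 37 moved. In 5, all with each distinct sequence counted once, a ratio whose interval excluded 1 changed sign: log2 ratios of -0.0251 for Mir429, Mir429-3p and Mir141, -0.0613 for Mir200a-3p and 0.65 for Mir200b-5p. In that setting the total was the table's distinct sequences in place of its reads. Count and total thus changed together, and their parts in the signs were not separated. Among the 198, where the interval included 1, the sign also changed for Mir141-5p with distinct sequences (-0.62) and for Mir200a-5p on the hairpin scale (-0.0089). Counting distinct sequences also gave 0.0083 for Mir200a, 0.16 for the chromosome 4 cluster, 0.25 for the seed AAUACUG, 0.0291 for the seed AACACUG and 0.18 for all 5, and 3p shares of 60% (KO-named) and 66.7% (het-named) for Mir200b, 58.3% (KO-named) and 61.5% (het-named) for Mir200a, and 88.9% (KO-named) and 80% (het-named) for Mir141. With hairpin reads as the total every log2 ratio was lower by 0.26: 0.10 for Mir200b, 0.26 for Mir200a and the seed AACACUG, 0.50 for Mir429, 0.33 for the chromosome 4 cluster, 0.36 for the seed AAUACUG and 0.32 for all 5. With 24 to 32 nt reads as the total the shift was -0.08: 0.43 for Mir200a and the seed AACACUG, 0.68 for Mir429, 0.54 for the seed AAUACUG and 0.50 for the chromosome 4 cluster and for all 5. With added ends included, the main start held 96.9% of Mir200b-3p reads in the KO-named table, against 96.5% in the het-named one. Mir200b-3p then also had more reads than Mir200a-3p in both tables, the reverse of the order by exact reads. Hairpins at a log2 ratio of 1 or more numbered 4 with at least 50 reads, 0 with at least 1000 and 0 on the hairpin scale, and those at -1 or less numbered 5 with at least 50 reads. Causes other than the scale shifts were not tested. No paired analysis was possible because each table is 1 library. Mir200c and the 5p strands are limited by depth.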

Other observations

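No read of 26 to 32 nt matched any of the 5 hairpins in either table. Antisense reads of Mir200a numbered 1 in the KO-named table, against 2 in the het-named one, and those of Mir200c 0 in the KO-named table, against 1 in the het-named one. Mir141-3p reads of 23 nt numbered 13 in the KO-named table, against 3 in the het-named one, a ratio of 5 (1.37 to 27.4), a form chosen after its values were seen.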
